A study of Homo sapiens with 46 samples.

Results

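The SRSF genes encode the SR proteins, RNA-binding splicing factors that share a domain rich in arginine and serine. Their levels and their own splicing were followed here through RNA sequencing of human cells and tumours treated with an antisense oligonucleotide or an siRNA directed at TRA2B, a related splicing factor. The members were chosen by name: 10 genes (SRSF1, SRSF2, SRSF3, SRSF4, SRSF5, SRSF6, SRSF7, SRSF9, SRSF10 and SRSF11) of 60668 in the gene tables, and every splicing event recorded under one of these names. Those events numbered 204 of 179118 at 200 nM, 162 of 139012 at 50 nM, 169 of 218608 with siRNA and 99 of 138022 in the tumours, 252 different events in all. All 10 genes passed the filter on low counts in every table.

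The series held 46 libraries in 14 groups. Breast cancer cells of the line MDA-MB-231 and glioblastoma cells of the line U87MG were transfected for 48 h with the antisense oligonucleotide ASO-1570, directed at TRA2B, or with the control oligonucleotide ASO-CTL, both at 200 nM and, in a separate experiment, both at 50 nM. In a further experiment both lines received siRNA-TRA2B or siRNA-CTL at 10 nM for 48 h. Each of these cell line groups had 3 libraries, and each line had its own controls in each experiment. A human breast carcinoma grown in mice as a patient-derived xenograft (PDX), 1 tumour model, was injected with ASO-1570 or ASO-CTL at 50 mg/kg, 3 times a week for 4 weeks, with 5 libraries per group. The labels call the host mice immunocompetent, and how reads of the host were handled is not given in the sources used here. The labels do not say whether replicates were separate cultures or animals, so the p-values measure only the spread between these libraries. The 50 nM and siRNA libraries of MDA-MB-231 carry a glioblastoma cell type label that conflicts with their cell line label. The epithelial markers EPCAM, KRT8, KRT18, KRT19, CDH1 and GATA3 were all above 1 CPM (counts scaled to the library total) in every MDA-MB-231 group, with a sum of 1140 to 3259 CPM, against a sum of 4.72 to 10.8 CPM in U87MG, and these libraries are called MDA-MB-231 below.

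SR proteins bind short purine-rich or other motifs in exons and recruit the spliceosome to nearby splice sites. Most of their genes also regulate themselves: they carry a poison exon or intron whose inclusion brings a premature stop codon, and such transcripts are degraded by nonsense-mediated decay. The TRA2 proteins, TRA2B and its paralog TRA2A, belong to the same extended family and bind GAA-rich RNA, with AGAA as the core motif. In bulk RNA a lower gene level can come from fewer cells of a type or from less RNA per cell, and the counts do not tell these apart.

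Some exons of the members are printed here from the GENCODE v29 transcripts (GRCh38), and not all of them had a called event. Those of the first pair are coding exons of SRSF5 (chr14:69769182-69769251, plus strand, 70 bases) and SRSF4 (chr1:29159374-29159486, minus strand, 113 bases), shown because the junction that skips each was used more in U87MG with ASO-1570. Capitals mark every AGAA on the transcribed strand, with overlapping matches joined.
SRSF5 coding exon: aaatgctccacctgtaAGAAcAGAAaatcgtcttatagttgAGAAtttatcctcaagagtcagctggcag
SRSF4 coding exon: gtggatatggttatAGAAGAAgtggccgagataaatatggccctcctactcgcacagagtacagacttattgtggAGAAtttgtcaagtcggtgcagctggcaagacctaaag
Each exon held 3 AGAA matches, counting overlaps. Other coding exons of SRSF5 with called skips in U87MG are not printed. The exon of 62 bases held 1 AGAA and the exon of 74 bases held 0. In the deposited splicing tables, AGAA was held by 45.9% of 614 cassette exons of 70 bases and 4.6% of them held as many matches, and of 665 cassette exons of 113 bases 56.7% held AGAA and 12.5% held as many. GAAGAA was present in the SRSF4 exon and in 11.3% of exons of its length. It was not among the letters of the SRSF5 exon, and 7.3% of exons of that length held it. A match is a description of the letters, and binding was not measured.

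The second set shows where the reading frame ends in poison exons, printed from the first base of the exon to the stop codon, which is in capitals. These exons are annotated only in transcripts that are not protein coding. They lie at chr20:43459153-43459420 in SRSF6 (plus strand, 268 bases), chr6:36599821-36600276 in SRSF3 (plus strand, 456 bases), chr2:38748898-38749173 in SRSF7 (minus strand, 276 bases), chr1:29165890-29166064 in SRSF4 (minus strand, 175 bases), chr1:70231859-70231975 in SRSF11 (plus strand, 117 bases) and chr14:69769511-69770540 in SRSF5 (plus strand, 1030 bases).
SRSF6 poison exon: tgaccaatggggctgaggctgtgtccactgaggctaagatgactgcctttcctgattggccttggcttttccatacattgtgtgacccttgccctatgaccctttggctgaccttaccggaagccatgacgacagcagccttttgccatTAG
SRSF3 poison exon: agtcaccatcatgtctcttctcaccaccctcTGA
SRSF7 poison exon: ggcagaaaatttgagacggTGA
SRSF4 poison exon: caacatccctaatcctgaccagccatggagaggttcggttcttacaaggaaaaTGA
SRSF11 poison exon: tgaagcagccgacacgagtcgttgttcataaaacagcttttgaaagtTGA
SRSF5 poison exon: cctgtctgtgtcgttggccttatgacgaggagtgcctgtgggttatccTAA
The frame ran for 149 bases before the stop codon in the SRSF6 exon, 31 in SRSF3, 19 in SRSF7, 53 in SRSF4, 47 in SRSF11 and 48 in SRSF5. Across the members 31 exons were annotated only in noncoding transcripts and 14 had a stop that could be placed in frame. Of the 12 of these with 69 to 456 bases, 2 held GAAGAA and 5 held AGAA, against 13.9% and 61.9% of 92408 cassette exons of 69 to 456 bases. The SRSF2 exon discussed below, chr17:76735772-76735875 (minus strand, 104 bases), is annotated in 1 nonsense-mediated decay transcript and 1 retained-intron transcript.

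Library depth was 259.9 to 356.8 M counts at 200 nM, 78.6 to 112.8 M at 50 nM, 75 to 111.1 M with siRNA and 75.3 to 109.6 M in the PDX. TRA2B was 74.2 to 147.4 CPM in the 12 ASO-1570 cell line libraries, against 150.6 to 225.3 CPM in their controls, and 21.4 to 28.1 CPM in the siRNA-TRA2B libraries, against 174.2 to 196.4 CPM with siRNA-CTL. It fell in all 6 cell line comparisons, by 0.76 to 1.13 on the log2 scale with ASO-1570 and with siRNA-TRA2B by 3.12 (MDA-MB-231) and 2.83 (U87MG). TRA2A rose in the same 6 comparisons, by 0.65 to 1.55 on the log2 scale. In the PDX, TRA2B was 77.7 to 113.9 CPM in ASO-1570 tumours and 78.3 to 130.1 CPM in ASO-CTL tumours (log2 change -0.16, edgeR adjusted p = 0.707). Among the MDA-MB-231 libraries with ASO-1570 at 200 nM, replicate 2 stood apart from its mates, and results that turn on it are marked.

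Levels of different members can be compared only per length, here as CPM per kilobase of the merged exons of each gene. SRSF1, the prototype SR protein that binds exonic enhancers, was the highest in every cell line group. In the ASO-CTL libraries at 200 nM it stood at 105.9 ± 7.98 CPM per kb in MDA-MB-231 and 96.4 ± 3.54 in U87MG (SD, n = 3). SRSF2 and SRSF3 came next in MDA-MB-231, at 71.1 ± 1.37 and 63.0 ± 1.45 CPM per kb in those controls, and in the siRNA-CTL libraries they stood at 66.3 ± 1.17 and 66.9 ± 3.96, within their spread. In U87MG controls at 200 nM SRSF2 (57.6 ± 3.20 CPM per kb) was followed by SRSF9 (48.3 ± 2.36) and SRSF3 (39.4 ± 1.40), and SRSF6 (30.5 ± 0.546) and SRSF7 (30.1 ± 0.992) did not differ beyond their spread. SRSF4, SRSF10 and SRSF11 were at the low end, with 12.4 ± 0.289, 17.5 ± 1.09 and 16.7 ± 1.11 CPM per kb in MDA-MB-231, where SRSF10 and SRSF11 lay within each other's spread, and 12.3 ± 0.165, 10.8 ± 0.180 and 15.05 ± 0.0252 in U87MG. The ASO-CTL tumours had another order on this scale: SRSF6 was highest at 72.6 ± 13.0 CPM per kb, SRSF1 stood at 57.5 ± 8.20 and SRSF2 at 50.9 ± 9.95 (SD, n = 5), neighbours that lie within each other's spread. SRSF4 was the lowest there at 6.41 ± 1.65 CPM per kb, within the spread of SRSF10 at 7.74 ± 1.02. Levels set across these tables come from separately scaled experiments and were not tested.

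**Figure D1:**
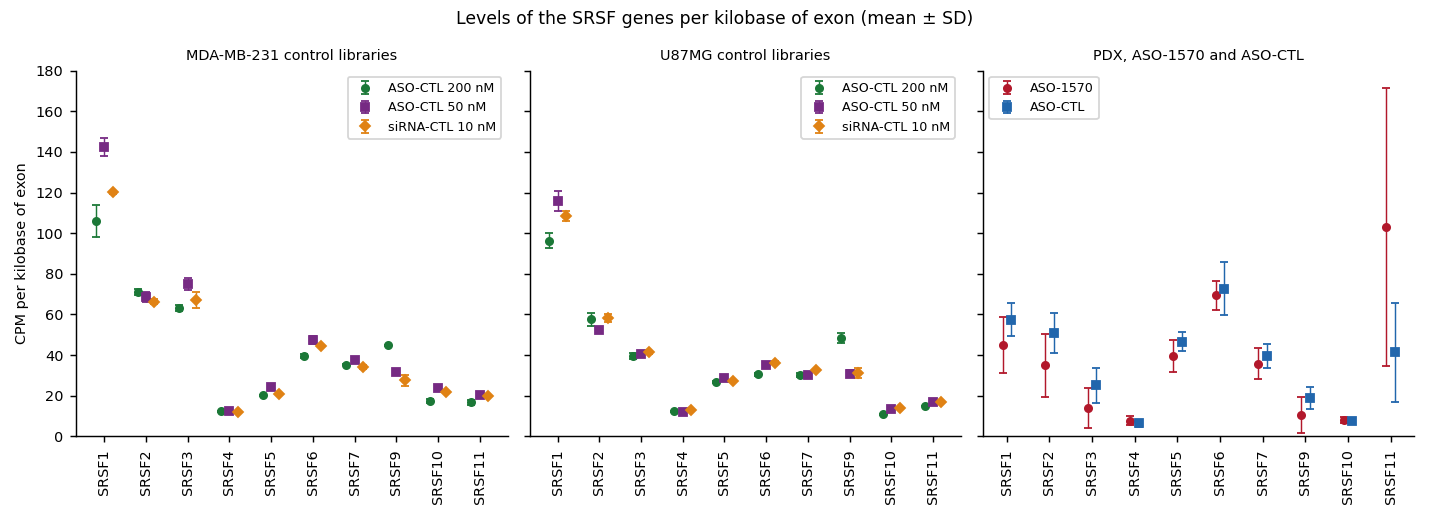
Level of each SRSF gene in CPM per kilobase of exon (y axis) in the control groups of both cell lines and in both groups of the PDX (mean and SD, 3 libraries per cell line group and 5 per PDX group). SRSF1 is the highest in every cell line control group shown, and SRSF4 or SRSF10 the lowest.

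The ASO-1570 comparisons asked how the SR protein genes answered the antisense oligonucleotide. SRSF5 rose in both lines at both concentrations. In U87MG SRSF6, SRSF10 and SRSF11 rose and SRSF2 fell at both concentrations, and SRSF9 rose and SRSF1 and SRSF7 fell at 50 nM. In MDA-MB-231 the falling members were SRSF1 at both concentrations and SRSF3 and SRSF7 at 50 nM. The called changes ranged from 0.80-fold for SRSF1 in MDA-MB-231 at 200 nM to 1.39-fold for SRSF11 in U87MG at 200 nM. The SRSF1 value includes ASO-1570 replicate 2, which stood apart and had the lowest SRSF1 level of its group. A change was called at an edgeR quasi-likelihood p below 0.05 after Benjamini-Hochberg adjustment over all genes tested. At 200 nM in MDA-MB-231, 1 member rose and 1 fell, where the shares among all genes were 11.7% up and 13.6% down. In U87MG at 200 nM, 4 members rose and 1 fell, against 25.8% and 23.9% of all genes. At 50 nM, 1 member rose and 3 fell in MDA-MB-231, where 10.1% of genes rose and 13.2% fell, and 5 rose and 3 fell in U87MG, where 27.9% of genes rose and 26.7% fell. The median log2 change of the 10 members was -0.06 at 200 nM and -0.06 at 50 nM in MDA-MB-231, and 0.02 and 0.045 in U87MG, with the median of all genes within 0.02 of 0 in each. Each gene weighs heavily in a share of 10, and the difference of these shares from those of all genes was not tested. The counts rest on single libraries in 3 of these comparisons. The 2 members called in MDA-MB-231 at 200 nM became 1 without ASO-CTL replicate 1 or 2, and the 4 at 50 nM became 2 without any 1 ASO-1570 library or ASO-CTL replicate 1 or 2. In U87MG the 8 at 50 nM became 5 without ASO-1570 replicate 1 or ASO-CTL replicate 1. Groups without overlap were common among all genes. At 200 nM every ASO-1570 library was above every control for 19% of genes and below for 20.3% in MDA-MB-231. In U87MG the shares were 34.1% and 32.3%. At 50 nM they were 19.8% and 21.4% in MDA-MB-231 and 31.4% and 30.6% in U87MG.

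**Figure D2:**
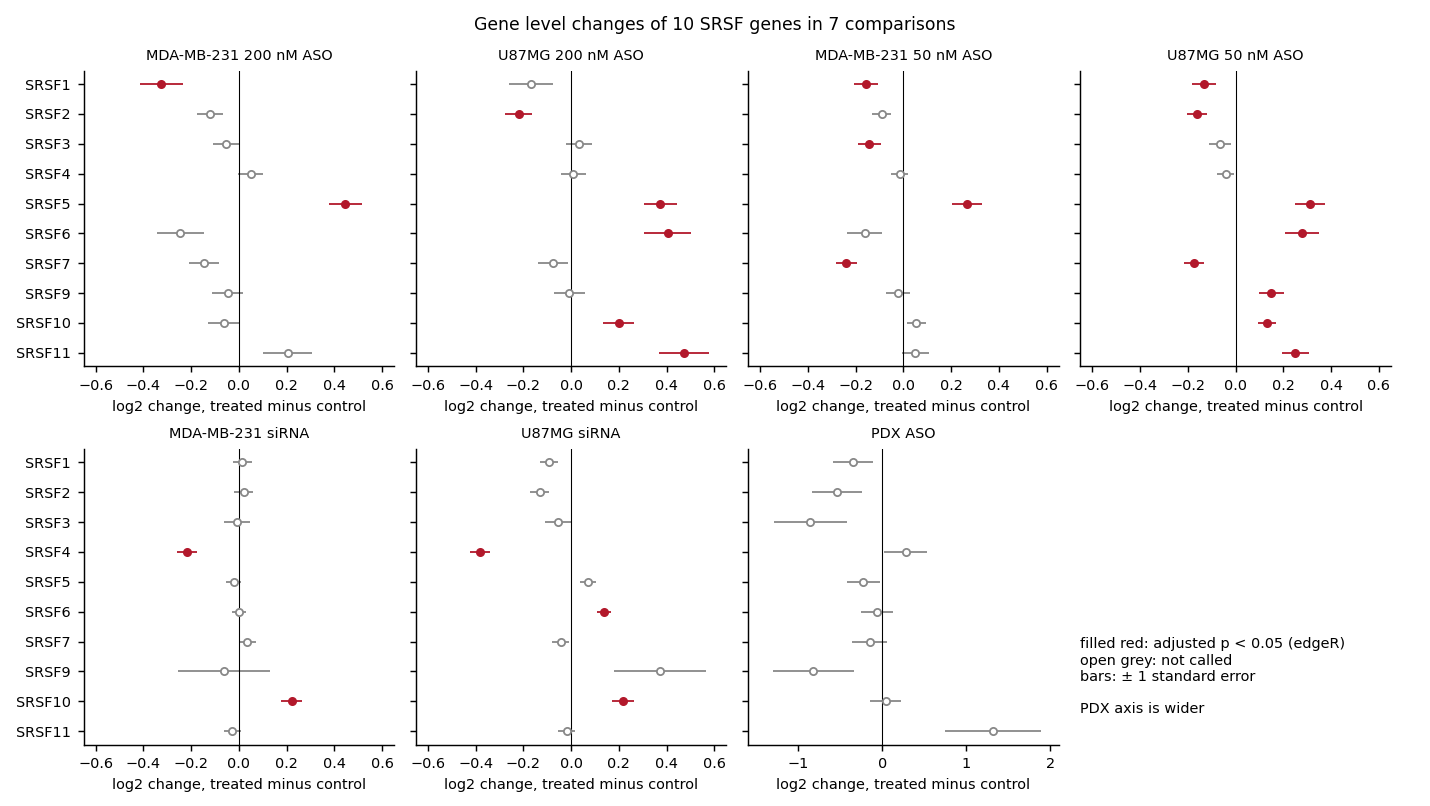
Log2 change (treated minus control, x axis) with its standard error for each of the 10 SRSF genes in the 7 comparisons, filled red where the edgeR adjusted p was below 0.05. SRSF5 is right of 0 in all 4 ASO-1570 cell line comparisons, SRSF6 lies on opposite sides of 0 in MDA-MB-231 and U87MG with ASO-1570, and the PDX panel has a wider axis.

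SRSF5, which has a pair of RNA-recognition motifs and acts as an exonic enhancer factor, was the member whose rise was shared by both lines and both concentrations. At 200 nM it had 152.8, 157.3 and 133.7 CPM in MDA-MB-231 with ASO-1570, against 108.8, 106.8 and 110.1 CPM with ASO-CTL. In U87MG it had 179.2, 197.3 and 182.8 CPM with ASO-1570, against 146.1, 140.9 and 144.5 CPM with ASO-CTL. In both lines every ASO-1570 library was above every control. The log2 change was 0.45 ± 0.07 (SE) in MDA-MB-231 (edgeR adjusted p = 0.000748) and 0.37 ± 0.07 in U87MG (edgeR adjusted p = 0.000626). The 50 nM libraries had 167.5, 159.7 and 143.1 CPM in MDA-MB-231 with ASO-1570, against 129, 134.3 and 127.4 CPM with ASO-CTL, and 194, 204 and 177.7 CPM in U87MG, against 154.9, 151.2 and 158.2 CPM. Again no library overlapped, with log2 changes of 0.27 (edgeR adjusted p = 0.00893) and 0.31 (edgeR adjusted p = 0.00122). The 4 calls held when any 1 library was left out, and the effects of the lines did not pass the test of their difference at either concentration.

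SRSF6, a close relative of SRSF4 and SRSF5, moved differently in the 2 lines. At 200 nM it had 166.8, 128.2 and 163.9 CPM in MDA-MB-231 with ASO-1570, against 183.1, 184.7 and 175.8 CPM with ASO-CTL. In U87MG it had 169.7, 207.1 and 179 CPM with ASO-1570, against 141.9, 140.9 and 137.2 CPM with ASO-CTL. The ASO-1570 libraries were all lower in MDA-MB-231 and all higher in U87MG. It rose by 0.40 ± 0.10 on the log2 scale in U87MG (edgeR adjusted p = 0.00467), while the change of -0.25 ± 0.10 in MDA-MB-231 did not pass the test (edgeR adjusted p = 0.0914) and was -0.13 without ASO-1570 replicate 2, which stood apart (edgeR adjusted p = 0.209). At 50 nM the MDA-MB-231 libraries had 194.8, 190.2 and 198.1 CPM with ASO-1570, against 215.3, 226.9 and 210.2 CPM with ASO-CTL, and the U87MG libraries 196, 218.4 and 169.7 CPM, against 161.3, 162.9 and 157.6 CPM. The groups again did not overlap and lay on opposite sides. SRSF6 rose in U87MG at 50 nM (log2 change 0.28, edgeR adjusted p = 0.00646), and the change of -0.16 in MDA-MB-231 did not pass (edgeR adjusted p = 0.133). The effect in MDA-MB-231 minus the effect in U87MG was -0.65 ± 0.14 at 200 nM (edgeR adjusted p = 0.00606) and -0.44 ± 0.10 at 50 nM (edgeR adjusted p = 0.0085). In the fit of all libraries SRSF6 was the only member whose effect differed between the lines by this test, 1 of 10 at each concentration, where 23.6% of all genes differed at 200 nM and 28.2% at 50 nM. Without ASO-CTL replicate 3 of U87MG the 200 nM change in U87MG was 0.29 (edgeR adjusted p = 0.0574), while the median of all genes moved from 0.02 to -0.032. The 50 nM change there was 0.15 without ASO-1570 replicate 2 (edgeR adjusted p = 0.0384). Both line differences of SRSF6 held without any 1 library. The number of members that differed between the lines at 200 nM was 3 without MDA-MB-231 ASO-1570 replicate 2 and 2 without its ASO-1570 or ASO-CTL replicate 3, and at 50 nM it was 2 without MDA-MB-231 ASO-1570 replicate 1 or U87MG ASO-1570 replicate 3.

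SRSF4, the largest of this subgroup, had 118.3, 113 and 111.4 CPM in MDA-MB-231 with ASO-1570 at 200 nM, against 108.8, 109 and 113.3 CPM with ASO-CTL. In U87MG it had 107.8, 113.7 and 109.2 CPM, against 109.5, 108 and 111 CPM. The groups overlapped in both lines and at both concentrations, with log2 changes of -0.04 to 0.05, and no call was made with the oligonucleotide.

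SRSF1, SRSF3 and SRSF7 shuttle between nucleus and cytoplasm, and SRSF3 and SRSF7 are known as adaptors for mRNA export. At 200 nM SRSF1 had 298.7, 238.7 and 310.1 CPM in MDA-MB-231 with ASO-1570, against 362.4, 374.8 and 323.7 CPM with ASO-CTL. It fell by 0.32 ± 0.09 on the log2 scale (edgeR adjusted p = 0.023), with no overlap between the groups. The lowest value, 238.7 CPM, was that of ASO-1570 replicate 2, which stood apart, so the size of this fall rests partly on it. In U87MG at 200 nM it had 282.8, 296.1 and 281.4 CPM with ASO-1570, against 328.8, 328.6 and 308.2 CPM with ASO-CTL, all lower but not called (log2 change -0.17, edgeR adjusted p = 0.156). At 50 nM SRSF1 fell in both lines, by 0.16 in MDA-MB-231 (428.5, 425.4 and 427.1 CPM against 484.9, 483.5 and 459.2 CPM, edgeR adjusted p = 0.041) and by 0.13 in U87MG (357.2, 370.7 and 330.1 CPM against 401, 390 and 369.4 CPM, edgeR adjusted p = 0.039), where the groups overlapped. None of the 3 SRSF1 calls held without every library. The 200 nM call in MDA-MB-231 was lost without ASO-CTL replicate 1 or 2 (edgeR adjusted p 0.0738 and 0.0947). The 50 nM calls were lost in MDA-MB-231 without ASO-1570 replicate 1, 2 or 3 or ASO-CTL replicate 1 or 2 (0.0665 to 0.11), and in U87MG without ASO-1570 replicate 1 or ASO-CTL replicate 1 or 2 (0.0649 to 0.112). Without ASO-1570 replicate 2 the U87MG change at 50 nM was -0.21 (edgeR adjusted p = 0.004). SRSF1 shares 1890 exonic bases with AC015813.2 on its strand, so its counts are uncertain where reads fall in both.

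SRSF7 was lower with ASO-1570 in 3 of the 4 oligonucleotide comparisons without overlap. The 50 nM libraries of MDA-MB-231 had 129.8, 129 and 127.4 CPM with ASO-1570, against 153.4, 157.2 and 145.2 CPM with ASO-CTL. In U87MG it had 110.8, 110.2 and 102.8 CPM with ASO-1570, against 121.4, 125.3 and 118.7 CPM with ASO-CTL. It fell by 0.24 on the log2 scale in MDA-MB-231 (edgeR adjusted p = 0.002) and by 0.17 in U87MG (edgeR adjusted p = 0.00455), and both calls held without any 1 library. At 200 nM it was not called (log2 change -0.15 in MDA-MB-231, edgeR adjusted p = 0.111, and -0.08 in U87MG, edgeR adjusted p = 0.349). Without ASO-1570 replicate 2, which stood apart, the MDA-MB-231 value was -0.21 (edgeR adjusted p = 0.00392). SRSF3, the smallest SR protein, fell in MDA-MB-231 at 50 nM, with 486, 487.9 and 477.7 CPM against 527.9, 557.5 and 516.8 CPM (log2 change -0.14, edgeR adjusted p = 0.047). That call was lost without any 1 of ASO-1570 replicates 1, 2 and 3 or ASO-CTL replicates 1 and 2 (edgeR adjusted p 0.076 to 0.155). SRSF3 overlapped between the groups in the other 3 oligonucleotide comparisons.

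SRSF2, a nuclear-speckle SR protein that binds exonic enhancers rich in G or C, fell in U87MG. At 200 nM it had 146.6, 149.1 and 151.7 CPM with ASO-1570, against 184.6, 169.8 and 166.5 CPM with ASO-CTL. The 50 nM libraries had 140, 146 and 138 CPM with ASO-1570, against 160.9, 158.2 and 155.4 CPM with ASO-CTL. No libraries overlapped, and the log2 changes were -0.22 (edgeR adjusted p = 0.00612) and -0.16 (edgeR adjusted p = 0.00517), both called without any 1 library. The 200 nM change was -0.35 without ASO-CTL replicate 3 (edgeR adjusted p = 0.00122), where the median of all genes also moved, from 0.02 to -0.032. In MDA-MB-231 the ASO-1570 libraries were also lower than every control (log2 change -0.12 at 200 nM and -0.09 at 50 nM), but the tests did not pass (edgeR adjusted p 0.14 and 0.131). SRSF2 shares 1106 exonic bases with MFSD11 on the opposite strand, and whether counting used strand is not given in the sources used here.

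SRSF10, which represses splicing when it is dephosphorylated, and SRSF11, a more distant family member, rose in U87MG. SRSF11 had 165.4, 189.3 and 176.2 CPM with ASO-1570 at 200 nM, against 127.8, 127.5 and 127.4 CPM with ASO-CTL, and 174.5, 182.6 and 157.3 CPM at 50 nM, against 147.5, 139 and 146.1 CPM. Every ASO-1570 library was above every control, and the log2 changes of 0.47 ± 0.10 (edgeR adjusted p = 0.00218) and 0.25 ± 0.06 (edgeR adjusted p = 0.00304) held without any 1 library. In MDA-MB-231 SRSF11 was 150.5, 194.7 and 144.5 CPM with ASO-1570 at 200 nM, against 145.1, 148.8 and 130.9 CPM with ASO-CTL, and the highest value was that of replicate 2, which stood apart. The difference between the lines was -0.27 at 200 nM (edgeR adjusted p = 0.209), and without that library it was -0.41 (edgeR adjusted p = 0.00488).

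SRSF10 rose by 0.20 in U87MG at 200 nM (125.8, 131.8 and 124.4 CPM with ASO-1570, against 112.4, 111.4 and 108.9 CPM with ASO-CTL, edgeR adjusted p = 0.0233). Its rise at 50 nM was 0.13 (156.6, 155.7 and 150.6 CPM against 139.2, 143.7 and 139.6 CPM, edgeR adjusted p = 0.0133). These SRSF10 calls depended on single libraries and on the processing. At 200 nM SRSF10 was not called with RLE scaling (edgeR adjusted p = 0.0503), without the filter on low counts (0.0699) or with a replicate block (0.0839). At 50 nM it was not called without that filter (log2 change 0.04, edgeR adjusted p = 0.522). At 200 nM the call was lost without ASO-1570 replicate 2 or any 1 of the controls (edgeR adjusted p 0.0573 to 0.419, the last with a log2 change of 0.08 without ASO-CTL replicate 3), and at 50 nM without any 1 ASO-1570 library or ASO-CTL replicate 1 or 3 (0.0513 to 0.0923). Leaving out ASO-CTL replicate 3 at 200 nM also moved the median log2 change of all genes, from 0.02 to -0.032, so that shift was not particular to SRSF10. SRSF9, the closest relative of SRSF1, rose in U87MG at 50 nM with overlapping groups, 133, 121.2 and 129.4 CPM against 109.5, 114.3 and 122.1 CPM (log2 change 0.15, edgeR adjusted p = 0.0265). That call was lost without ASO-1570 replicate 1 or 3 or ASO-CTL replicate 1 or 2 (0.0946 to 0.202, the last with a log2 change of 0.089 without ASO-1570 replicate 3), and SRSF9 shares 1729 exonic bases with GATC on the opposite strand.

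**Figure D3:**
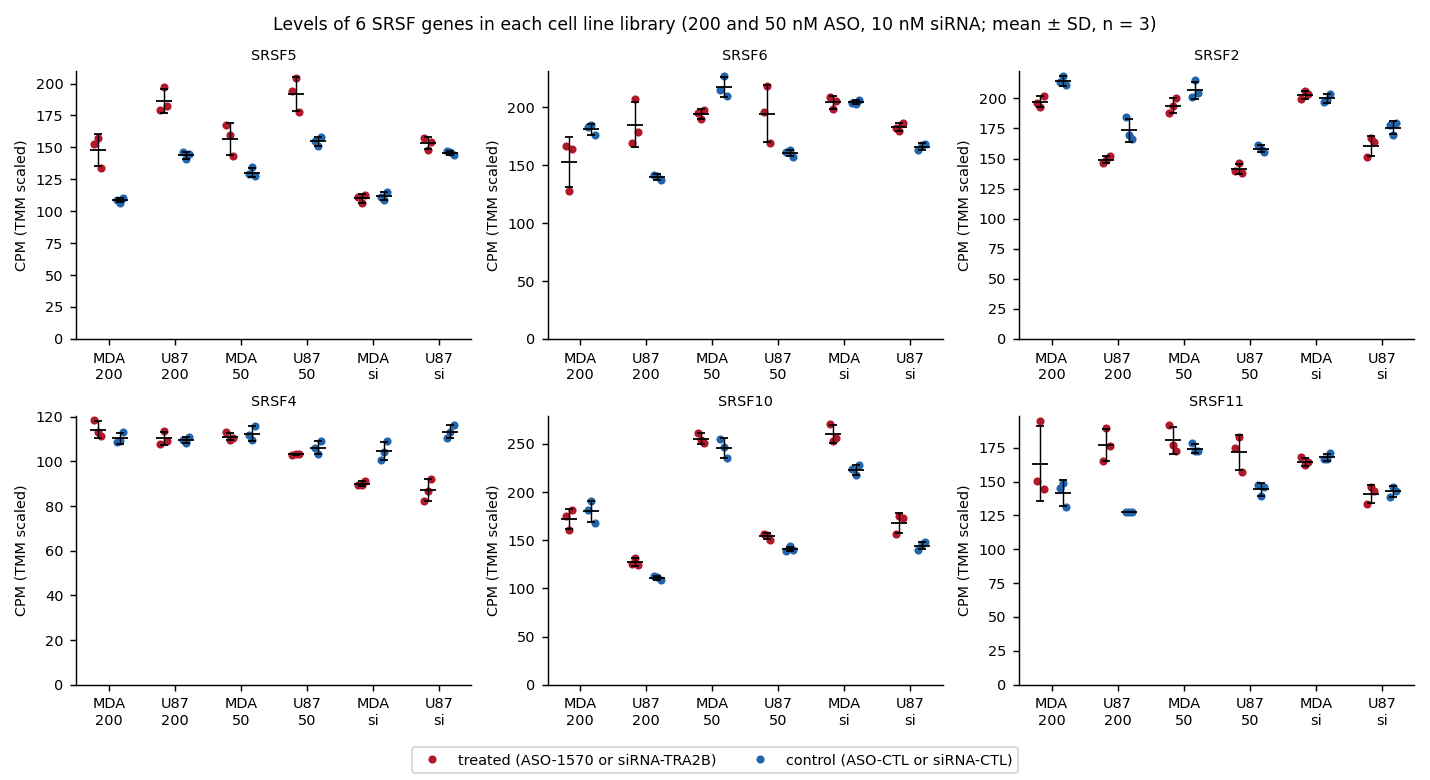
CPM (y axis) of SRSF5, SRSF6, SRSF2, SRSF4, SRSF10 and SRSF11 in every cell line library, with treated libraries left of their controls in each pair and mean and SD beside the points (n = 3). SRSF5 is separated in the 4 oligonucleotide pairs and in the siRNA pair of U87MG, but not in that of MDA-MB-231. SRSF4 is separated only in the siRNA pairs.

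The siRNA comparisons asked how the same genes answered an siRNA against TRA2B. SRSF4 fell and SRSF10 rose in both lines, and SRSF6 rose in U87MG. SRSF4 had 89.2, 89.4 and 91.2 CPM in MDA-MB-231 with siRNA-TRA2B, against 100.8, 104.1 and 109 CPM with siRNA-CTL. In U87MG it had 82.2, 86.7 and 92.0 CPM, against 110.3, 113.2 and 116.4 CPM. No libraries overlapped in either line. SRSF4 fell by 0.22 ± 0.04 on the log2 scale in MDA-MB-231 (edgeR adjusted p = 0.0091) and by 0.38 ± 0.04 in U87MG (edgeR adjusted p = 0.000668), and both calls held without any 1 library. SRSF4 had no call in any oligonucleotide comparison. Oligonucleotide and siRNA are in separate tables, so these values stand side by side without a test.

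SRSF10 had 270.5, 253.4 and 255.9 CPM in MDA-MB-231 with siRNA-TRA2B, against 223.5, 217.9 and 227.7 CPM with siRNA-CTL (log2 change 0.22, edgeR adjusted p = 0.0118). In U87MG it had 156.2, 175.1 and 172.6 CPM, against 139.9, 146 and 147.7 CPM (log2 change 0.22, edgeR adjusted p = 0.0195). The siRNA-TRA2B libraries were above every control in both lines. The MDA-MB-231 call was lost without siRNA-TRA2B replicate 1 or siRNA-CTL replicate 1 or 2 (edgeR adjusted p 0.0508 to 0.0655), and the U87MG call without siRNA-TRA2B replicate 2 or 3 or siRNA-CTL replicate 1 or 2 (0.0552 to 0.0913). SRSF6 had 182.4, 179.6 and 186.8 CPM in U87MG with siRNA-TRA2B, against 162.9, 167.2 and 168.6 CPM with siRNA-CTL (log2 change 0.14, edgeR adjusted p = 0.0205). That call was lost without siRNA-TRA2B replicate 1 or 3 or siRNA-CTL replicate 1 or 2 (0.0571 to 0.0943). In MDA-MB-231 SRSF6 was 209.4, 198.7 and 205.2 CPM, against 203.9, 203 and 206.4 CPM.

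With siRNA-TRA2B 1 member rose and 1 fell in MDA-MB-231, against 3.65% and 3.6% of all genes. In U87MG 2 members rose and 1 fell, against 1.6% and 2.6% of all genes. Every siRNA-TRA2B library was above every control for 13.4% of all genes and below for 13.7% in MDA-MB-231. In U87MG these shares were 11.8% and 11.8%. The 2 members called in MDA-MB-231 became 1 without siRNA-TRA2B replicate 1 or siRNA-CTL replicate 1 or 2, and the 3 in U87MG became 1 without siRNA-TRA2B replicate 3 or siRNA-CTL replicate 1 or 2. No member differed between the lines by edgeR (0.527% of all genes did), by DESeq2 or without any 1 library, and 3 (SRSF2, SRSF4 and SRSF6) had an unadjusted p below 0.05. SRSF5, the member that rose with ASO-1570 in both lines, was 110.9, 106.2 and 113 CPM in MDA-MB-231 with siRNA-TRA2B, against 111.5, 108.7 and 114.9 CPM, and 157.2, 148.2 and 154.2 CPM in U87MG, against 146.9, 146.4 and 144.2 CPM. SRSF9 in U87MG had 118, 117.6 and 218.8 CPM with siRNA-TRA2B, against 116.4, 108.6 and 126.3 CPM, so that 1 library set its mean. SRSF1, SRSF2, SRSF3, SRSF7 and SRSF11 were not called in either line. Nor was SRSF5 (edgeR adjusted p = 0.798 in MDA-MB-231 and 0.286 in U87MG), though its U87MG groups did not overlap.

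Splicing of the members was followed as percent spliced in (PSI), the share of the form that holds the alternative stretch among the forms of that event. It is read against the event's own skipping junction, so it is not a share of all transcripts of the gene. The deposited tables hold PSI without read counts, so the depth behind each value is unknown. Events of the SRSF genes were called in U87MG with ASO-1570 at both concentrations, and none was called in the other 5 comparisons. An event was called at a limma p below 0.05, adjusted over all events tested, with a difference in mean PSI of at least 0.10. In U87MG at 200 nM, 13 of 58 tested member events were called, where 19.6% of all events were called. Of them 1 was included more and 12 less, against 5.47% and 14.1% of all events. In U87MG at 50 nM, 9 of 53 were called, where 13.8% of all events were called, 2 of them included more and 7 less, against 3.84% and 9.95%. The difference of these shares from those of all events was not tested. Among all tested events in U87MG, 14.4% had every ASO-1570 library above every control at 200 nM and 32% below. At 50 nM these shares were 12.6% and 27.1%. In MDA-MB-231 they were 8.05% and 16.1% at 200 nM, and 7.7% and 12.2% at 50 nM. The 13 events at 200 nM became 5, 6 and 7 without ASO-CTL replicate 1, 2 and 3, and the 9 at 50 nM became 4 and 5 without ASO-CTL replicate 2 and 3 and 15 without ASO-1570 replicate 3. The called events belonged to SRSF2, SRSF4, SRSF5 and SRSF11 at 200 nM, and to SRSF2 and SRSF5 at 50 nM.

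No member event was called in MDA-MB-231 with ASO-1570, 0 of 48 at 200 nM and 0 of 43 at 50 nM, where limma called 1.42% and 0.194% of all events. At an unadjusted p below 0.05, 9 and 2 member events passed there, where 15.7% and 11.8% of all events did. With siRNA-TRA2B, 0 of 26 member events were called in MDA-MB-231 and 0 of 21 in U87MG, and limma called 0% of all events in either line, with 5.88% and 5.34% of all events and 0 member events at an unadjusted p below 0.05. Most member events had nearly constant PSI: in U87MG at 200 nM all 204 had a value in every library, and 58 had a range of at least 0.05 and were tested.

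The SRSF2 cassette exon of 104 bases was included more in U87MG. At 200 nM its PSI was 0.148, 0.213 and 0.185 with ASO-1570, against 0.058, 0.053 and 0.054 with ASO-CTL. The 50 nM PSI was 0.190, 0.220 and 0.169 with ASO-1570, against 0.062, 0.053 and 0.062 with ASO-CTL. Every ASO-1570 library was above every control, by 0.13 in mean PSI at both concentrations (limma adjusted p = 0.0083 and 0.00976). The skip ends at 76735158, the edge of another SRSF2 exon annotated only in noncoding transcripts, chr17:76735061-76735158. This PSI is read against that junction and is not a share of all SRSF2 transcripts. The SRSF2 gene level was lower in these libraries, as given above, and its relation to this PSI was not tested. In MDA-MB-231 the PSI was 0.116, 0.107 and 0.082 at 200 nM with ASO-1570, against 0.068, 0.065 and 0.063 with ASO-CTL, higher in each but not called (limma adjusted p = 0.383). At 50 nM it was 0.108, 0.108 and 0.093, against 0.069, 0.069 and 0.080, a range too small to be tested. With siRNA-TRA2B it was 0.091, 0.096 and 0.089 in MDA-MB-231, against 0.084, 0.076 and 0.065, and 0.084, 0.086 and 0.070 in U87MG, against 0.072, 0.059 and 0.062. The effect in MDA-MB-231 minus that in U87MG was -0.104 at 50 nM (limma adjusted p = 0.0136). It fell short of 0.10 in size without MDA-MB-231 ASO-1570 replicate 3 (-0.0987) or U87MG ASO-1570 replicate 2 (-0.0902), and at 200 nM it was -0.091.

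SRSF5 had the most events of any member, and 7 of them were included less in U87MG at each concentration. These were not the same events: only the retained regions and an alternative 3′ splice site event that shares a junction with the longer region were called at both. Apart from a short alternative 3′ splice site downstream, the junctions of these events skip the 70-base coding exon printed above or join it to another exon. The first is a retained region of 259 bases between that exon and the 1030-base poison exon, chr14:69769252-69769510, whose splicing joins the 2 exons. Its PSI, the unspliced share, was 0.635, 0.553 and 0.612 with ASO-1570 at 200 nM, against 0.877, 0.862 and 0.899 with ASO-CTL. In the 50 nM libraries it was 0.707, 0.680 and 0.753 with ASO-1570, against 0.891, 0.90 and 0.950 with ASO-CTL. The junction into the poison exon thus took a larger share of this choice in every ASO-1570 library, with differences in PSI of -0.279 ± 0.033 (SE, limma adjusted p = 0.00365) and -0.20 ± 0.035 (limma adjusted p = 0.0173). The 50 nM call was lost without ASO-1570 replicate 1 or any 1 control (limma adjusted p 0.0517 to 0.0725). In MDA-MB-231 the same PSI was 0.871, 0.927 and 0.877 with ASO-1570 at 200 nM, against 0.962, 0.958 and 0.961 with ASO-CTL, lower in each but not called (limma adjusted p = 0.239). Measured as a cassette, the 1030-base poison exon itself had no call in any comparison.

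The second SRSF5 event is a longer retained region, chr14:69768897-69770466, which holds the 70-base exon, so that its spliced form skips that exon. Its PSI in U87MG was 0.821, 0.773 and 0.810 with ASO-1570 at 200 nM, against 0.993, 0.984 and 0.982 with ASO-CTL. In the 50 nM libraries it was 0.845, 0.863 and 0.885 with ASO-1570, against 0.992, 1.000 and 1.000 with ASO-CTL. The skipping junction, nearly unused in the controls, was seen in every ASO-1570 library of U87MG (differences of -0.185, limma adjusted p = 0.00299, and -0.133, limma adjusted p = 0.00882). An alternative 3′ splice site event of 956 bases shares this junction and moved with it (-0.170 at 200 nM, limma adjusted p = 0.00391, and -0.119 at 50 nM, limma adjusted p = 0.0104). Its 50 nM call was lost without ASO-CTL replicate 2 (0.0514) or 3 (0.0513). Measured as a cassette against the transcripts that include it, the 70-base exon itself stayed at a PSI of 0.992, 0.988 and 0.991 with ASO-1570 at 200 nM, against 1.000, 0.999 and 0.999 with ASO-CTL, and its range was too small to be tested.

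Longer skips of SRSF5 were also more frequent in U87MG with ASO-1570. Against a junction that leaps from 69768282 to 69771194, the 70-base exon had a PSI of 0.496, 0.454 and 0.405 at 50 nM with ASO-1570, against 1.000 in all 3 controls (-0.548, limma adjusted p = 0.00151). The 62-base coding exon upstream had 0.505, 0.320 and 0.541, against 1.000 in all 3 controls (-0.545, limma adjusted p = 0.00605). Its 71-base form, measured against the same junction, had 0.994, 0.994 and 0.997 with ASO-1570, against 1.000 in all 3 controls, so the skip was rare beside that form and its range was too small to be tested. At 200 nM the 70-base value was 0.142, 0.180 and 0.214 with ASO-1570, against 0.323, 0.338 and 0.803 with ASO-CTL, and was not called (limma adjusted p = 0.148). Controls differed this much between experiments on the same rare junction. The 74-base exon downstream was called at 50 nM against that junction (-0.180, limma adjusted p = 0.0106) and against a shorter skip (-0.129, limma adjusted p = 0.014), and at 200 nM against another skip (-0.143, limma adjusted p = 0.0192). Each of these 3 calls was lost without any 1 control (limma adjusted p 0.0548 to 0.068), and the last also without ASO-1570 replicate 1 (0.0514).

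The other called SRSF5 events at 200 nM in U87MG were a 3-base alternative 3′ splice site (PSI 0.811, 0.830 and 0.883 with ASO-1570, against 0.986, 0.953 and 0.995 with ASO-CTL, limma adjusted p = 0.0143), a 355-base alternative 5′ splice site (-0.222, limma adjusted p = 0.0173) and a 1359-base cassette (-0.108, limma adjusted p = 0.0192). The 3-base call was lost without ASO-CTL replicate 1 (0.0575) or 3 (0.0589), the 355-base call without ASO-CTL replicate 1 (0.0689) or 2 (0.0685), and the 1359-base call without any 1 control (0.059 to 0.071), with a difference of -0.0897 without ASO-1570 replicate 2. An alternative 5′ splice site near the start of the gene, which adds 125 bases, was included more. Its PSI in U87MG at 50 nM was 0.218, 0.231 and 0.232 with ASO-1570, against 0.128, 0.117 and 0.127 with ASO-CTL (difference 0.103, limma adjusted p = 0.0117, and 0.0995 without ASO-CTL replicate 2). At 200 nM it was 0.261, 0.264 and 0.265, against 0.191, 0.186 and 0.194, a separation of 0.073 in mean PSI that was under the 0.10 needed for a call (limma adjusted p = 0.0137). In MDA-MB-231 at 200 nM it was 0.228, 0.223 and 0.202 with ASO-1570, against 0.183, 0.167 and 0.148 with ASO-CTL (limma adjusted p = 0.264).

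SRSF4 showed a skip of the 113-base coding exon printed above. The alternative 5′ splice site event of 1001 bases that ends at this exon, chr1:29159374-29160374, has the skipping junction as its short form. Its PSI in U87MG at 200 nM was 0.869, 0.836 and 0.821 with ASO-1570, against 1.000, 0.997 and 1.000 with ASO-CTL (-0.157 ± 0.018, limma adjusted p = 0.00337). At 50 nM it was 0.855, 0.860 and 0.974 with ASO-1570, against 1.000, 1.000 and 0.996 with ASO-CTL. All ASO-1570 libraries were below all controls at both concentrations, and the 50 nM difference of -0.102 was not called (limma adjusted p = 0.101, and 0.0444 on the logit scale). The exon itself had a PSI of 0.978, 0.970 and 0.968 with ASO-1570 at 200 nM, against 1.000 in all 3 controls, a range too small to be tested.

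SRSF4 poison exons were included less in U87MG at 200 nM when measured against a skip from 29168503 to 29160517. That skip starts at the edge of another SRSF4 exon annotated only in noncoding transcripts, chr1:29168503-29168638. These PSI values are read against that junction and are not shares of all SRSF4 transcripts. The 175-base exon printed above had a PSI of 0.705, 0.763 and 0.804 with ASO-1570, against 0.863, 0.972 and 0.891 with ASO-CTL (-0.151, limma adjusted p = 0.0461). The neighbouring 184-base exon had 0.556, 0.493 and 0.696, against 0.793, 0.959 and 0.858 (-0.288, limma adjusted p = 0.0297), and its 138-base form 0.111, 0.176 and 0.447, against 0.609, 0.838 and 0.628 (-0.447, limma adjusted p = 0.03). The groups did not overlap. All 3 calls share the junction and the libraries. No stop could be placed in the 184-base and 138-base exons, and the 138-base form is annotated only in 1 retained-intron transcript. The 175-base call was lost without any 1 library, the 184-base and 138-base calls without ASO-1570 replicate 1 or 2 or any 1 control (limma adjusted p 0.0554 to 0.122 over the 3), and none was called at 50 nM. The SRSF11 poison exon of 109 bases, chr1:70231095-70231203, had a PSI of 0.257, 0.275 and 0.344 at 200 nM with ASO-1570, against 0.416, 0.371 and 0.400 with ASO-CTL (-0.104, limma adjusted p = 0.0471). That call was lost without ASO-1570 replicate 1 or 2 or any 1 control (0.081 to 0.131), and was not made at 50 nM (limma adjusted p = 0.498). No stop could be placed in this 109-base exon. Its skip ends at 70231859, the first base of the 117-base SRSF11 poison exon, so its PSI is not a share of all SRSF11 transcripts.

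**Figure D4:**
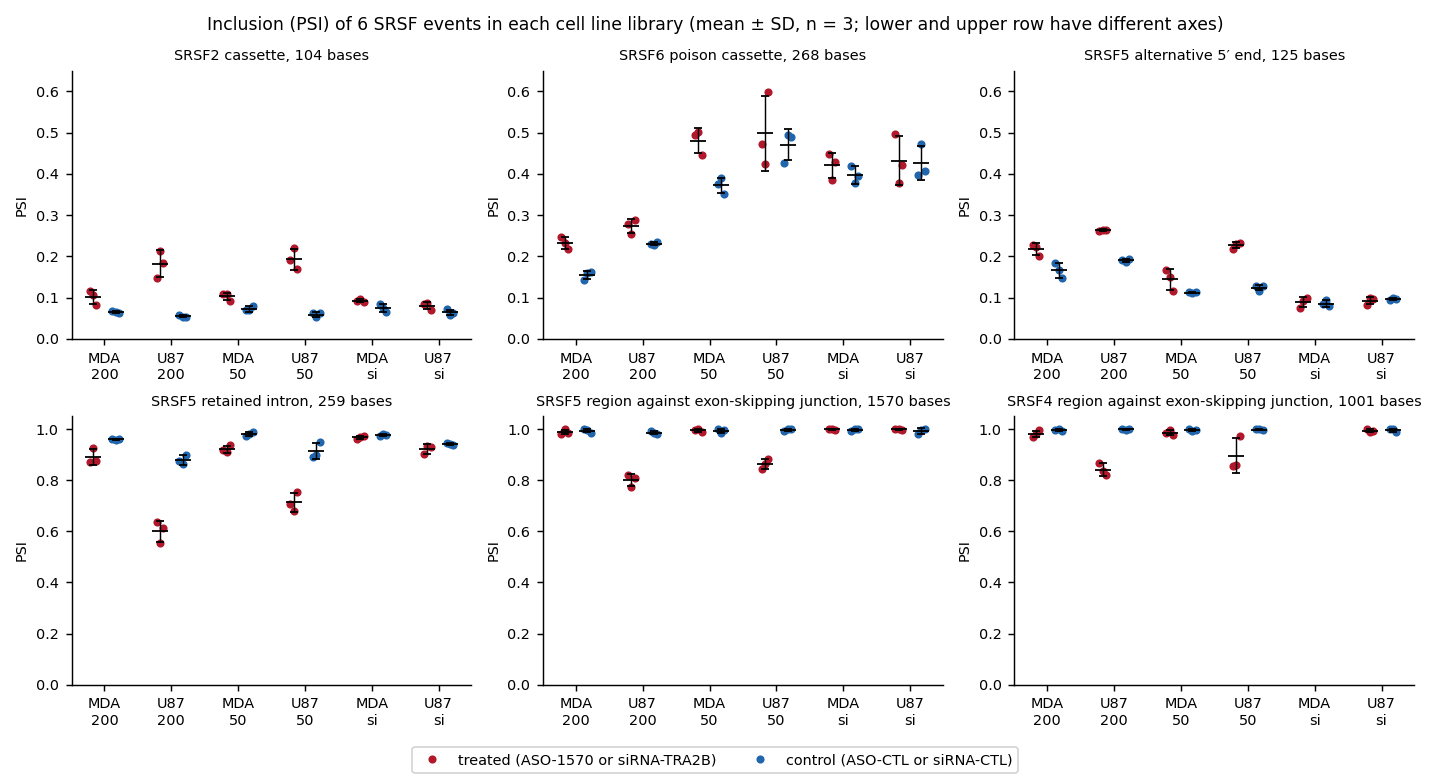
PSI (y axis) in every cell line library, treated left of control in each pair, for the SRSF2 104-base cassette, the SRSF6 268-base poison exon, the SRSF5 125-base alternative 5′ splice site, the shorter (259 bases) and longer SRSF5 retained regions and the SRSF4 region of 1001 bases. The SRSF2 exon is above its controls, and the regions of SRSF5 and SRSF4 are below theirs, in every U87MG library with ASO-1570.

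Poison exons of the other members stayed without a call. The SRSF6 exon of 268 bases was higher in MDA-MB-231 with ASO-1570, with a PSI of 0.248, 0.232 and 0.218 at 200 nM, against 0.143, 0.159 and 0.163 with ASO-CTL (limma adjusted p = 0.116). At 50 nM the exon had 0.494, 0.502 and 0.446, against 0.375, 0.389 and 0.352 (limma adjusted p = 0.22). No libraries overlapped in that line, where the SRSF6 gene level was lower in each ASO-1570 library without a call. In U87MG it was 0.278, 0.254 and 0.288 at 200 nM, against 0.229, 0.228 and 0.234 (limma adjusted p = 0.105), and at 50 nM the groups overlapped (0.473, 0.423 and 0.598, against 0.427, 0.495 and 0.488). With siRNA-TRA2B the groups overlapped in both lines. The control level of this exon differed between experiments of the same line: its mean with ASO-CTL in MDA-MB-231 was 0.155 at 200 nM and 0.372 at 50 nM, so values are compared only within an experiment.

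The SRSF3 exon of 456 bases was rarely included in U87MG and stood at 0.047, 0.056 and 0.049 with ASO-1570 at 200 nM, against 0.012, 0.013 and 0.012 with ASO-CTL, and at 0.046, 0.050 and 0.034 at 50 nM, against 0.013 in all 3 controls. These groups did not overlap, but their range was below the 0.05 needed for a test. In MDA-MB-231 it was 0.166, 0.132 and 0.144 at 200 nM, against 0.111, 0.125 and 0.126 (limma adjusted p = 0.525). The SRSF7 exon of 276 bases lay between 0.009 and 0.040 in all cell line libraries, and its 449-base form between 0.029 and 0.082, also untested. In U87MG at 200 nM the 276-base exon had 0.030, 0.038 and 0.030 with ASO-1570, against 0.018, 0.020 and 0.017 with ASO-CTL, with no overlap. Cassettes of SRSF1 (203 bases) and SRSF10 (165 bases) passed the test in U87MG at 200 nM with differences under 0.10. The SRSF1 exon is a longer form of a coding exon of 187 bases. Its skip ends at 58005041, the edge of another exon annotated only in a nonsense-mediated decay transcript. Its PSI is read against that junction and is not a share of all SRSF1 transcripts. The skip of the SRSF10 exon runs from 23980191 to 23972012, the edge of a coding exon of 163 bases. The SRSF10 PSI is likewise read against that junction alone and is not a share of all SRSF10 transcripts. The SRSF1 exon had 0.934, 0.887 and 0.898 with ASO-1570, against 0.986, 0.982 and 0.991 (-0.08, limma adjusted p = 0.0191), and the SRSF10 exon 0.924, 0.923 and 0.928, against 0.975, 0.970 and 0.991 (-0.054, limma adjusted p = 0.0247). At 50 nM the SRSF10 exon had 0.90, 0.895 and 0.908, against 0.964, 0.976 and 0.965 (limma adjusted p = 0.0359). The SRSF9 poison exon of 90 bases stood at 0.000 to 0.001 in every library.

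The effects on splicing were tested for a difference between the lines. At 200 nM 6 of 81 member events differed, where 8.08% of all events did, and at 50 nM 6 of 65, where 4.89% did (10 of the members' events without U87MG ASO-1570 replicate 3). With siRNA none of 24 differed by limma, where 0.00573% of all events did, and 1 of the events named here, an SRSF4 poison exon event, had an unadjusted p below 0.05 (0.0446). For the longer SRSF5 retained region the effect in MDA-MB-231 minus that in U87MG was 0.180 at 200 nM (limma adjusted p = 0.000667) and 0.135 at 50 nM (limma adjusted p = 0.00306). For the SRSF4 region of 1001 bases it was 0.142 at 200 nM (limma adjusted p = 0.0014). Both events were at a PSI of at least 0.969 in every MDA-MB-231 library. For the SRSF5 region of 259 bases it was 0.211 at 200 nM (limma adjusted p = 0.00618) and 0.141 at 50 nM (limma adjusted p = 0.0361), and on the logit scale neither passed (0.299 and 0.995). The 50 nM value also missed the threshold on leaving out any 1 of the 12 libraries other than U87MG ASO-1570 replicate 2 or 3 (limma adjusted p 0.0556 to 0.0887).

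In the PDX no gene of the series was called by edgeR or DESeq2 (0% of 23812 genes, with 2053 at an unadjusted p below 0.05, 8.62%), and the groups of every member overlapped. The share of counts from mitochondrial genes differed widely between the tumours. It was 22.76%, 38.06%, 64.16%, 75.31% and 64.32% in ASO-1570 tumours and 17.65%, 38.03%, 29.79%, 26.8% and 53.89% in ASO-CTL tumours, against at most 3.16% in the cell lines. SRSF11 had 198.8, 301.9, 1359, 1125 and 1381 CPM in ASO-1570 tumours, against 153.5, 365.3, 290.1, 253.7 and 692.4 CPM in ASO-CTL tumours. The high values were those of ASO-1570 replicates 3, 4 and 5 and ASO-CTL replicate 5, the tumours with the 4 highest mitochondrial shares. SRSF11 was the 1 member at an unadjusted p below 0.05 (log2 change 1.32 ± 0.57, edgeR adjusted p = 0.487), and with mitochondrial genes left out of the library size the change was 1.29 (edgeR adjusted p = 0.504). The part of the mitochondrial share in this value was not tested.

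SRSF3 had 216.9, 112.8, 53.9, 46 and 64.9 CPM in ASO-1570 tumours, against 246.2, 151.3, 187.7, 222.5 and 90.4 CPM in ASO-CTL tumours. SRSF9 had 93.5, 51.3, 14.9, 17.7 and 20.8 CPM in ASO-1570 tumours, against 100.5, 56.3, 57.8, 82.2 and 53.8 CPM in ASO-CTL tumours. Both were lowest in ASO-1570 replicates 3, 4 and 5, with log2 changes of -0.86 and -0.82 that did not pass the test (edgeR adjusted p = 0.487 for each). SRSF6 was 307.1, 375.7, 308.7, 302.2 and 298.5 CPM in ASO-1570 tumours, against 265.9, 294.1, 422.3, 340.8 and 343.7 CPM in ASO-CTL tumours. The remaining members had log2 changes between -0.54 (SRSF2) and 0.28 (SRSF4), and the median of the 10 was -0.19, against 0.005 for all genes. The epithelial markers were all above 1 CPM in both groups, with a sum of 1208 to 2709 CPM in ASO-1570 tumours and 1521 to 3007 CPM in ASO-CTL tumours. Of 4 endothelial markers none, and of 4 leukocyte markers 1, was above 1 CPM, with CD3E at 0.

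**Figure D5:**
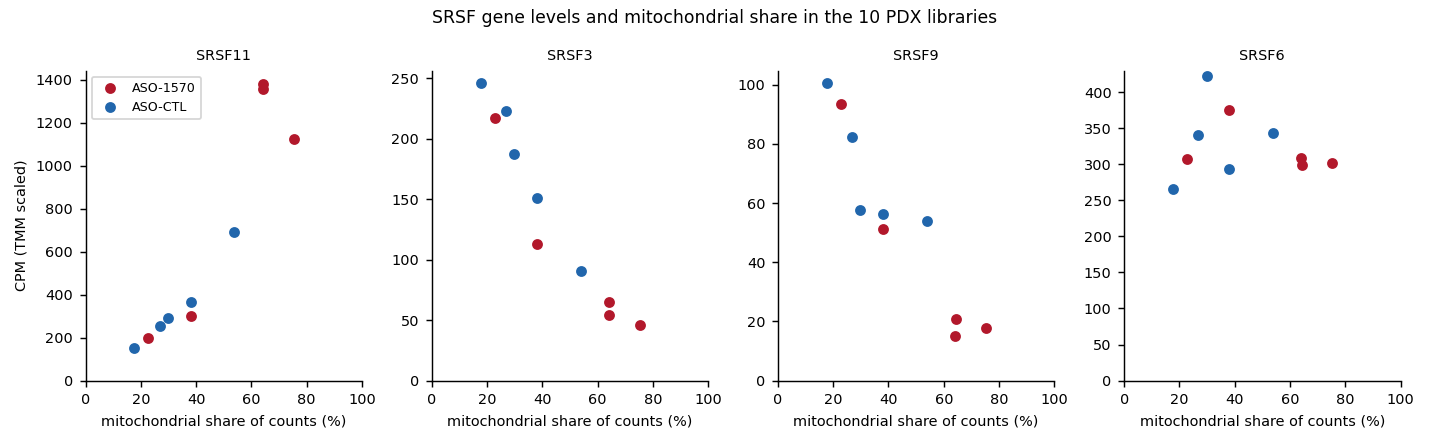
CPM (y axis) of SRSF11, SRSF3, SRSF9 and SRSF6 against the mitochondrial share of counts in percent (x axis) in the 10 PDX libraries, ASO-1570 and ASO-CTL in different colours. SRSF11 is highest, and SRSF3 and SRSF9 are lowest, in the libraries with the largest shares, while SRSF6 shows no such order.

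No splicing event of the PDX was called by limma (0% of 66854 events, with 4.14% at an unadjusted p below 0.05), and 0 of 42 member events reached an unadjusted p below 0.05. Poison exons that were rare in the cell lines had a wide range in the tumours. The SRSF11 exon of 117 bases had a PSI of 0.788, 0.231, 0.743, 0.566 and 0.785 in ASO-1570 tumours, against 0.417, 0.481, 0.648, 0.343 and 0.191 in ASO-CTL tumours, and 0.032 to 0.107 in the cell lines. The SRSF7 exon of 276 bases had 0.693, 0.197, 0.552, 0.431 and 0.736 in ASO-1570 tumours, against 0.265, 0.406, 0.629, 0.300 and 0.130 in ASO-CTL tumours. In both exons ASO-1570 replicate 2 and ASO-CTL replicate 5 were the lowest of their groups, the highest ASO-1570 values were those of replicates 1 and 5, and the groups overlapped (limma adjusted p = 0.763 for each). The SRSF2 exon of 104 bases had 0.127, 0.085, 0.203, 0.141 and 0.206 in ASO-1570 tumours, against 0.080, 0.136, 0.198, 0.084 and 0.068 in ASO-CTL tumours (limma adjusted p = 0.763).

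Genes that work with the SR proteins were read from 4 lists chosen by function: 19 SR-related proteins, 8 kinases of SR proteins with their nuclear importer, 19 hnRNPs, which often oppose SR proteins, and 15 factors of nonsense-mediated decay. In U87MG with ASO-1570 they moved in both directions: 6 SR-related genes rose and 2 fell at 200 nM, and 8 rose and 6 fell at 50 nM, while for the hnRNPs 9 rose and 7 fell, and 7 rose and 8 fell. For the decay factors in U87MG 4 rose and 5 fell at 200 nM, and 6 rose and 5 fell at 50 nM. In MDA-MB-231 with ASO-1570 more hnRNPs fell than rose, 6 against 2 at 200 nM and 8 against 1 at 50 nM, and SR-related genes did so too, 4 against 1 and 2 against 0. Of the decay factors 2 rose and 2 fell at 200 nM and 2 rose and 4 fell at 50 nM in that line. These counts stand beside the shares of all genes given above, and no list was tested against them. The kinase list had 1 rising and 3 falling members in MDA-MB-231 and 2 and 2 in U87MG at 200 nM, and 0 and 2, and 3 and 2, at 50 nM. With siRNA-TRA2B 3 SR-related genes, 1 kinase and 2 hnRNPs rose and 1 SR-related gene fell in MDA-MB-231, and in U87MG 1 SR-related gene rose and 1 fell and 1 decay factor fell. In the PDX no gene of these lists was called by edgeR.

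SRPK1, the kinase that phosphorylates SR proteins in the cytoplasm, fell in all 4 ASO-1570 comparisons and in neither siRNA comparison. It averaged 251.4 CPM in MDA-MB-231 with ASO-1570 at 200 nM, against 421.3 CPM with ASO-CTL (log2 change -0.75, edgeR adjusted p = 5.65e-05), and 42.8 CPM in U87MG, against 83.5 CPM (-0.96, edgeR adjusted p = 1.49e-06). At 50 nM the log2 changes were -0.67 in MDA-MB-231 and -1.16 in U87MG, and with siRNA-TRA2B they were -0.10 (edgeR adjusted p = 0.453) and -0.09 (edgeR adjusted p = 0.552). TNPO3, which imports phosphorylated SR proteins into the nucleus, fell in the same 4 comparisons, with log2 changes of -0.24 in MDA-MB-231 and -0.46 in U87MG at 200 nM and -0.14 and -0.39 at 50 nM. CLK1, a nuclear kinase of SR proteins, rose in U87MG (0.64 at 200 nM and 0.56 at 50 nM), and its level in MDA-MB-231 fell at 200 nM (-0.24, edgeR adjusted p = 0.02). Among hnRNPs HNRNPDL fell in all 4, by 0.35 to 0.72 on the log2 scale, and PTBP2, the neuronal paralog of the splicing repressor PTBP1, rose in all 4, by 0.47 to 1.22. Among decay factors SMG9, a regulator of the SMG1 kinase, rose in all 4, by 0.54 to 1.22, and CASC3, a core protein of the exon junction complex, fell in all 4, by 0.30 to 0.44. SREK1, an SR-related protein, fell in U87MG by 0.62 at 200 nM and 0.79 at 50 nM. SRRM1, a splicing coactivator of that list, rose in both siRNA comparisons (0.39 in MDA-MB-231 and 0.25 in U87MG).

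Genes whose pattern was most like each member were found by Pearson's correlation of log2 CPM over the 36 cell line libraries and 21472 genes. The libraries share experiment, line and treatment, so the values are a description. The genes nearest to SRSF5 were SAT2 (r = 0.964), AOC2 (0.952) and GABARAPL2 (0.951), and those nearest to SRSF11 were PRPF38B (0.946), LLPH (0.944) and CSPP1 (0.936). SRSF6 was nearest to ZBTB40 (0.944), SRSF1 to BMI1 (0.931), SRSF7 to COPS3 (0.927), SRSF4 to ZNF37A (0.893), SRSF10 to SLK (0.891), SRSF2 to SEPHS1 (0.868) and SRSF3 to TARS1 (0.813). SRSF9 had the weakest nearest gene, JMJD8 (0.686). Among the members SRSF5 and SRSF11 were the most alike (r = 0.796), and SRSF2 and SRSF5 the most opposed (-0.777).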

How the data were processed

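RNA from 46 samples was sequenced as paired reads of 151 bases from a stranded mRNA kit, per the labels' protocols. Per the submitters' processing notes, reads passed FastQC, MultiQC and Trimmomatic, were aligned with STAR to GRCh38 (hg38) and quantified with StringTie; versions and the counting options are not given in the sources used here. The authors deposited raw counts, whole numbers per gene and library. They also deposited PSI values as a fraction from 0 to 1 per splicing event and library, from rMATS per the file headers and names, with no read counts. Of 60668 gene identifiers 60340 carried a symbol; positions, transcripts and exon sequences came from GENCODE v29. Second copies of the 200 nM tables were identical and were left out.

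Counts were filtered with filterByExpr, scaled by TMM and fitted in R 4.3.3 with edgeR 4.0.16 (quasi-likelihood), all groups of a table in 1 fit. PSI was fitted with limma 3.58.1 (trend) on both groups of a comparison, after events that lacked a value in some library or varied by less than 0.05 were dropped. Differences between the lines were interaction contrasts of the 4 groups of a table. All adjusted p-values are Benjamini-Hochberg over all genes or events tested. CPM is the edgeR value on the TMM-scaled library. Fits were tested on simulated data. Alternatives were DESeq2 1.42.0, RLE scaling, no filter on low counts, the 2 groups alone, a replicate block, logit PSI, no range filter, all groups in 1 PSI fit, a smaller minimum difference and each library left out.

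The members and lists were chosen with earlier results of these data known. Named were all members, their called events, TRA2B, TRA2A and up to 4 genes of smallest p per list. Their poison exon events were also chosen for naming, but the values of some that had no call are not given. Of the 3 genes most like each member, some are given as 1 only. Events of 1 gene share junctions and reads and are not independent.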

Additional observations from a re-analysis of the deposited data

Results flagged for a closer look

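In the PDX, groups of 5 libraries were searched for a value far from the other 4, in 54 groups of values, and chance alone gives such a value in about 1 group in 20. SRSF6 at 375.7 CPM in ASO-1570 replicate 2 was far above the other ASO-1570 tumours, and SRSF7 at 116.8 CPM in ASO-CTL replicate 1 was far below the other ASO-CTL tumours. The SRSF5 alternative 5′ splice site of 125 bases had a PSI of 0.302 in ASO-1570 replicate 5, far below the other 4. The SRSF3 exon of 98 bases had a PSI of 0.044 in ASO-CTL replicate 3, and the SRSF7 exon of 69 bases a PSI of 0.053 in ASO-1570 replicate 3, each far above the other 4 of its group.

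The other values stand out because an effect of ASO-1570 differed between the cell lines by a test of the difference, given here as the effect in MDA-MB-231 minus that in U87MG. For the SRSF6 level it was -0.649 on the log2 scale at 200 nM and -0.44 at 50 nM. For PSI at 200 nM it was 0.108 for the SRSF5 cassette of 1359 bases, 0.211 and 0.18 for the shorter (259 bases) and longer SRSF5 retained regions, 0.165 and 0.118 for the SRSF5 alternative 3′ splice sites of 956 and 3 bases, and 0.142 for the SRSF4 region of 1001 bases. At 50 nM it was -0.104 for the SRSF2 exon of 104 bases, 0.495 and 0.502 for the SRSF5 exons of 62 and 70 bases against the longest skip, 0.141 and 0.135 for the shorter (259 bases) and longer SRSF5 retained regions, and 0.122 for the SRSF5 alternative 3′ splice site of 956 bases. The SRSF5 events at each concentration share junctions and libraries. What made any of these values stand apart was not tested.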

How the results depend on the processing

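Of the 24 called changes of members in gene level 13 held without each library in turn, of the 22 called event changes 9, and of the 14 called line differences 11, TRA2 genes not counted. No called value changed sign under any alternative run. The PSI tables hold no read counts, so what depth limits is unknown there, and 3 libraries per cell line group limit the rest.

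Replicate numbers do not pair the samples: deviations of same-numbered libraries correlated at -0.088 to 0.102 in the cell lines and -0.209 to 0.774 in the PDX, and in no comparison did every library correlate best with its own number. With a replicate block, member events called were 8 in U87MG at 200 nM and 2 at 50 nM, with 0 line differences at 50 nM, and member genes called in MDA-MB-231 at 200 nM were 1. Over all events the block left 0 in MDA-MB-231 at 200 nM, 0 at 50 nM, 10407 in U87MG at 200 nM and 2887 at 50 nM, and line differences of 3823 at 200 nM, 0 at 50 nM and 0 with siRNA.

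A minimum difference of 0.05 gave 23 member events in U87MG at 200 nM. Fitting the 2 groups alone called 1 member gene in MDA-MB-231 at 200 nM and 1 in U87MG with siRNA, and DESeq2 gave 2 member line differences at 200 nM. Over all events, all groups in 1 fit called 3285 in MDA-MB-231 at 200 nM, 946 at 50 nM and 162 with siRNA, and 164 in U87MG with siRNA. Logit PSI called 2335, 447 and, in U87MG with siRNA, 6, with line differences of 2416 at 50 nM and 10 with siRNA. No range filter called 404 and 39 in MDA-MB-231 at 200 and 50 nM, and 2 in MDA-MB-231 and 1 in U87MG with siRNA. Over all genes with siRNA, DESeq2 called 2638 in MDA-MB-231 and 1849 in U87MG, no filter on low counts 982 and 481, and for the line difference DESeq2 509, RLE scaling 80 and no filter 27. The cause was not tested.

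Leaving out 1 library in turn, member events called ranged over 0 to 2 in MDA-MB-231 at 200 nM, 5 to 14 in U87MG at 200 nM, 4 to 15 at 50 nM and stayed at 0 in MDA-MB-231 at 50 nM, with siRNA and in the PDX. Member genes ranged over 1 to 3 in MDA-MB-231 and 4 to 5 in U87MG at 200 nM, 2 to 4 and 5 to 8 at 50 nM, 1 to 2 and 1 to 3 with siRNA, and 0 in the PDX. All events ranged over 64 to 3030 and 11471 to 16290 at 200 nM, 7 to 792 and 3537 to 11095 at 50 nM, 0 to 9 and 0 to 7 with siRNA, and 0 in the PDX. All genes ranged over 4221 to 7787 and 10891 to 12343, 3696 to 5808 and 11362 to 13865, 796 to 1408 and 476 to 779 in that order, and 0 in the PDX. Line differences ranged at 200 nM over 5 to 9 member events, 1 to 3 member genes, 5903 to 9369 events and 4716 to 8082 genes. At 50 nM they ranged over 4 to 10, 1 to 2, 1865 to 6749 and 5287 to 8512, and with siRNA over 0, 0, 0 to 17 and 26 to 92.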
